A study of Mus musculus with 6 samples.

Results

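Glutathione transferases, glutathione peroxidases, peroxiredoxins and superoxide dismutases were compared between livers of mice lacking the peroxisomal import receptor Pex5 in the liver and wild-type livers. Members were all genes whose symbol is Gst followed by a class letter (a, k, m, o, p, t or z) and a digit, Mgst, Gpx or Prdx followed by a digit, or Sod1, Sod2 or Sod3, on a probe set that the platform annotation gives exactly 1 symbol. The rule found 37 genes among the 18193 measured, namely 23 transferases, 8 glutathione peroxidases, 3 peroxiredoxins and 3 superoxide dismutases. They are read by 59 probe sets, the short groups of oligonucleotides by which an Affymetrix array measures a transcript. Where a gene had several (13 of the 37), the brightest on average across the 6 arrays stood for it, and 24 genes had 1.

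The livers came from male mice of 10 weeks, 3 wild type (WT) and 3 of the genotype L Pex5 -/- (KO), with 1 array per liver and total RNA of the whole tissue. The labels give both groups the same background, mixed, Alb-Cre Tac:[Sw]fBR. Alb-Cre expresses Cre recombinase from the promoter of albumin, a hepatocyte gene, so that other cells of a KO liver are expected to keep Pex5. Pex5 carries newly made enzymes into the peroxisome matrix, and the series title asks about the energy and sugar metabolism of hepatocytes without working peroxisomes. Replicates are called biological in the labels, which name no batch.

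Glutathione transferases join the tripeptide glutathione to reactive compounds, so that these can be exported from the cell. Their soluble forms fall into classes named by Greek letters, and the Mgst forms sit in membranes. Glutathione peroxidases and peroxiredoxins reduce hydrogen peroxide and lipid peroxides, drawing on glutathione or thioredoxin, and superoxide dismutases turn superoxide into hydrogen peroxide. In the liver these enzymes serve detoxication of foreign compounds and defence against oxidants, and peroxisomes are themselves a site where hydrogen peroxide is made and broken down.

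Values are log2 levels after the authors' RMA normalization, and a difference is KO minus WT on that scale. The error after a level is an SD (n = 3 livers), and the error after any difference is a standard error (SE) from limma. Changed, higher, lower, rose and fell are used for genes with an adjusted p under 0.05 (limma, Benjamini-Hochberg over all 18193 genes). A level of 4.90 was taken as background, since 95% of 39 olfactory receptor genes, which liver is not known to use, had means below about that value. Median levels per array ran from 5.04 to 5.10, and arrays of 1 group correlated at no less than 0.989 over all genes against at most 0.976 between groups. Spike-in controls are foreign transcripts meant to be added during sample preparation. Their probe sets were dimmer on the KO arrays (9.14 to 9.24) than on the WT arrays (9.58 to 9.70). Which controls were added here, and at which step, was not examined. When each array was centred on these controls, every difference moved up by 0.45, giving 11142 higher and 462 lower genes in place of 2589 and 1774, and directions below are relative to the deposited scale. Gapdh control probes at the 3' end were brighter than those at the 5' end by 0.0018 to 0.035 in WT, against -0.11 to -0.058 in KO, and the same difference for Actb overlapped between groups. The level of Pex5 itself was 9.04 ± 0.14 in WT against 9.22 ± 0.11 in KO (difference 0.18 ± 0.11 SE, adjusted p = 0.262). Whether its probes lie in the deleted part is not given in the sources used here, so Pex5 does not check the labels.

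Hepatocyte markers were bright in all livers, with 2 of 6 lower in KO, Serpina1c (-0.98 ± 0.09) and Fga (-0.43 ± 0.09). The others did not pass and went both ways. Alb (0.15 ± 0.08) lay above WT in all KO livers and Apoa1 (-0.10 ± 0.08) below, with Ttr at 0.067 and Hnf4a at 0.11. Their joint level, the log2 of the mean unlogged level over the list, was 14.10 to 14.14 in WT and 13.92 to 13.96 in KO. None of 8 Kupffer cell and macrophage markers passed (0 higher, 0 lower), and their joint level was 8.39 to 9.55 in WT and 8.79 to 9.17 in KO. Endothelial markers went from 8.39 to 8.67 in WT to 8.11 to 8.29 in KO (1 of 6 higher, 2 lower) and stellate cell markers from 7.99 to 8.10 to 7.62 to 7.92 (1 of 6 lower). Cholangiocyte markers went from 5.17 to 5.46 to 4.97 to 5.09 (1 of 4 lower, 1 under background on all arrays). In whole tissue, fewer cells of a type and less RNA per cell cannot be told apart, and the part of these shifts in the results below was not tested.

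Of the 37 genes, 9 were higher and 9 lower in KO. That is 48.6% of the members called, against 24.0% of all genes, with 14.2% of all genes higher and 9.75% lower. The 3 KO livers lay wholly above the 3 WT livers in 12 members and wholly below them in 12, together 64.9% against 44.8% of all genes. The median difference of the members was -0.016 and that of all genes -0.055, while the median absolute difference was 0.35 against 0.21. Members were also brighter, with a median WT level of 10.23 against 6.09 for all genes, and dim probe sets have compressed differences. The part of brightness in these gaps was not tested. The dimmer of 2 probe sets lay farther from 0 for Gstm3 (2.69 against 2.07) and Gsta3 (-0.80 against -0.47). For Gpx4 (0.83 against 0.88) and Gstm7 (-0.26 against -0.79) the dimmer one lay nearer to 0. Whether the brightest probe sets also have compressed differences was not tested. Transferases moved both ways, with 5 of 23 higher and 8 lower, whereas among the 14 peroxidases, peroxiredoxins and dismutases 4 were higher and 1 was lower. With the arrays centred on the spike-in controls all 9 higher members were still higher. That setting moves every difference up, so it could hardly end such a call and does not test these 9. Of the 9 lower members 3 (Gstt3, Gstt1 and Gstm7) still passed as lower on that scale, 4 (Gstz1, Gsta3, Gsta4 and Prdx4) kept a negative value without passing, and 2 (Gstk1 and Gsto2) turned positive.

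**Figure D1:**
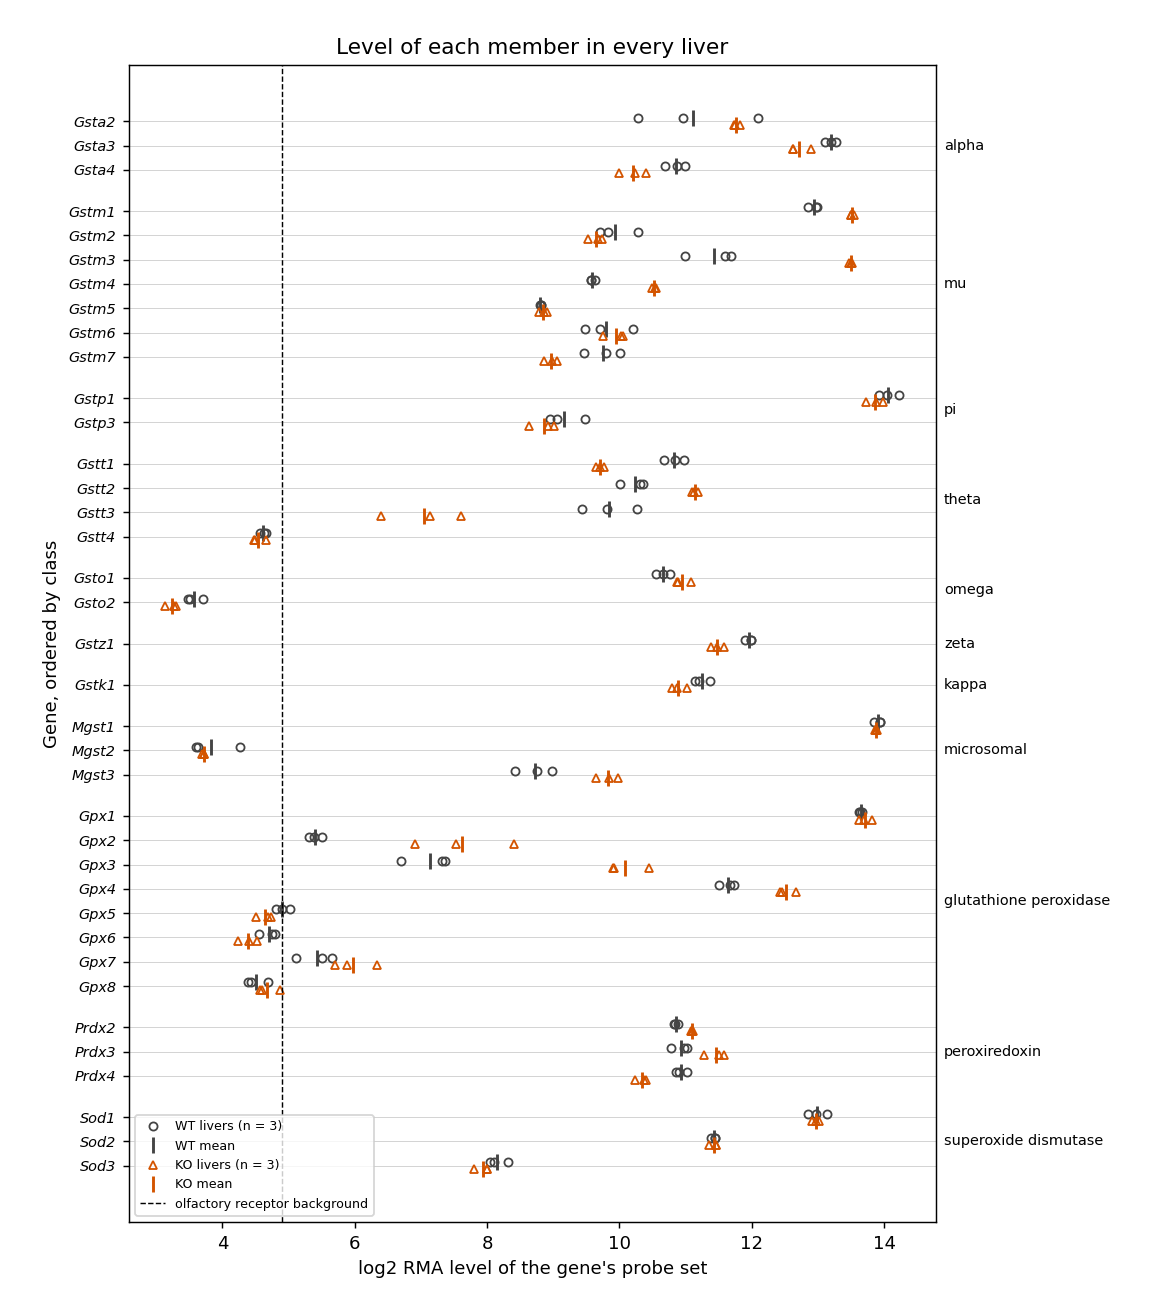
Log2 RMA level of the 37 members in each of the 6 livers, WT as circles and KO as triangles, with vertical ticks for the group means and a dashed line at the background of 4.90. Gpx3, Gpx2 and Gstm3 show KO livers far to the right of WT and Gstt3 far to the left, and levels of different genes are not comparable, since each probe set binds with its own strength.

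Largest among the rises were those of Gpx3, Gpx2 and Gstm3, and largest among the falls that of Gstt3. The 250 bases before their transcription starts are shown here as RefSeq gives them on GRCm38.p6. Those of Gsta3, which fell, and Gstm5, which did not pass, are added as examples of windows that match a short element. NRF2, a transcription factor that many detoxication genes respond to, binds this element. The element's core was searched as TGACNNNGC on both strands, and matches are in capitals. Gstt3 has 2 starts in the source, and the window of the one farthest upstream is shown.

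Gpx3, chr11:54902604-54902853, plus strand: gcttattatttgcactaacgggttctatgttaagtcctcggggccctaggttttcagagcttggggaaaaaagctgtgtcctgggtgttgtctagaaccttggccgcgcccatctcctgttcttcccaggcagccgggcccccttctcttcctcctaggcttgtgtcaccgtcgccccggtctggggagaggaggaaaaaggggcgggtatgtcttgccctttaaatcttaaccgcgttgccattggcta
Gpx2, chr12:76795555-76795804, minus strand: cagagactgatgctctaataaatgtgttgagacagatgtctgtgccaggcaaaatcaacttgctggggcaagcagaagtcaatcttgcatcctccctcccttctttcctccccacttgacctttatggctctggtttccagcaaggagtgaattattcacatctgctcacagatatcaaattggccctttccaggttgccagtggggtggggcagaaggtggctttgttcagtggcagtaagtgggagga
Gstm3, chr3:107969175-107969424, minus strand: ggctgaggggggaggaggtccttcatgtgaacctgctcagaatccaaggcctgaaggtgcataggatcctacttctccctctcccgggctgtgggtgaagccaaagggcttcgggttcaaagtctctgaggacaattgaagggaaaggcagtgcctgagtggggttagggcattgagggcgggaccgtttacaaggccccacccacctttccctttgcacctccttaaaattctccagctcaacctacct
Gstt3, chr10:75781423-75781672, minus strand: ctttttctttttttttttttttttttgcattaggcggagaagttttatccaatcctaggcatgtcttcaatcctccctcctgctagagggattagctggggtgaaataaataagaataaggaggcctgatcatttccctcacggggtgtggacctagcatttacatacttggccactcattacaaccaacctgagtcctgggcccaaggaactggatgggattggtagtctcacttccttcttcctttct
Gsta3, chr1:21240335-21240584, plus strand: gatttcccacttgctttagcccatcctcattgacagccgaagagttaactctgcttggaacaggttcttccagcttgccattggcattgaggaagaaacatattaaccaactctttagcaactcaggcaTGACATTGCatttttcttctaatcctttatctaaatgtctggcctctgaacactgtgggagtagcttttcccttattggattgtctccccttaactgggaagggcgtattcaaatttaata
Gstm5, chr3:107895604-107895853, plus strand: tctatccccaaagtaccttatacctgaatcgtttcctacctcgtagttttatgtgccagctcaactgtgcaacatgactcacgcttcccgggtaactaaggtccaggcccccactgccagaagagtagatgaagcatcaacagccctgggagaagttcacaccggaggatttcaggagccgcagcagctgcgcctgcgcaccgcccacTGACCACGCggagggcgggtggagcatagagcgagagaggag

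Promoter windows, 46 in number, were at hand for 34 of the 37 members, all but Gsta4, Gstt2 and Sod3. A gene with several starts was counted if any of its windows had a match. A match stood in 5 of the 34, namely Gsta3, Gstm5, Gstm7, Mgst1 and Sod1, against 11.5% of 27025 genes and 10.2% of 32851 windows of the same length. None of the 8 higher members with a window had one (0 higher, 2 lower and 3 without a call). In Gsta3, which fell, the match TGACATTGC began 121 bases before the start, and in Gstm5, which did not pass, TGACCACGC began 42 bases before it. The direct repeat 1 element, of the kind that PPARalpha binds, was found in 0 of the 34 and in 0.40% of all genes. These counts describe the letters in these windows and no more.

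The mu class, cytosolic enzymes encoded side by side on chromosome 3, held 3 higher and 1 lower of 7 genes. Gstm3 stood at 11.69, 11.60 and 10.99 in WT replicates 1 to 3 and at 13.51, 13.50 and 13.48 in KO. All KO livers were higher than all WT livers and lay close together, while WT replicate 3 was the lowest. The difference was 2.07 ± 0.18 (SE), a 4.19-fold rise (adjusted p = 0.000193). Its other probe set gave 2.69 ± 0.17, also called.

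Gstm4 read 9.57, 9.56 and 9.63 in WT and 10.55, 10.54 and 10.49 in KO. The groups were tight and apart, with a difference of 0.94 ± 0.08, or 1.91-fold (adjusted p = 0.000243). For Gstm1 the WT values were 12.97, 12.85 and 12.98 and the KO values 13.49, 13.54 and 13.50, and again no KO liver reached down to WT. It rose 1.49-fold (0.58 ± 0.09, adjusted p = 0.00281), and all 4 of its probe sets were called higher, with differences from 0.58 to 0.80. Affymetrix marks the probe sets that stand for Gstm1 and Gstm3 as able to bind related transcripts, so the share of each gene in them is uncertain. No such mark is on the other probe set of Gstm3 or on the Gstm1 probe sets that gave 0.68 and 0.69.

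Gstm7 went the other way, from 10.00, 9.46 and 9.80 in WT to 9.05, 8.97 and 8.86 in KO. Every KO liver was below every WT liver, and the gene was 1.73-fold lower (-0.79 ± 0.14, adjusted p = 0.00665), while a dimmer probe set of the gene gave -0.26 and did not pass (adjusted p = 0.193). Spike-in centring left the fall at -0.34 with an adjusted p of 0.0493. Gstm2, Gstm5 and Gstm6 did not pass, with differences of -0.29, 0.045 and 0.15 and overlapping groups. Gstm6 lay between 9.48 and 10.20 in WT and between 9.75 and 10.05 in KO, and Gstm2 between 9.71 and 10.28 in WT and between 9.52 and 9.74 in KO. Of the 3, Gstm5 was the least variable, all 6 livers lying between 8.79 and 8.90. In chromosomal order of RefSeq's GRCm38.p6 gene table the class runs Gstm5, Gstm7, Gstm6, Gstm3, Gstm2, Gstm1, Gstm4, with no other protein-coding gene between, so that the gene that fell and the gene that rose most are separated by Gstm6 alone.

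**Figure D2:**
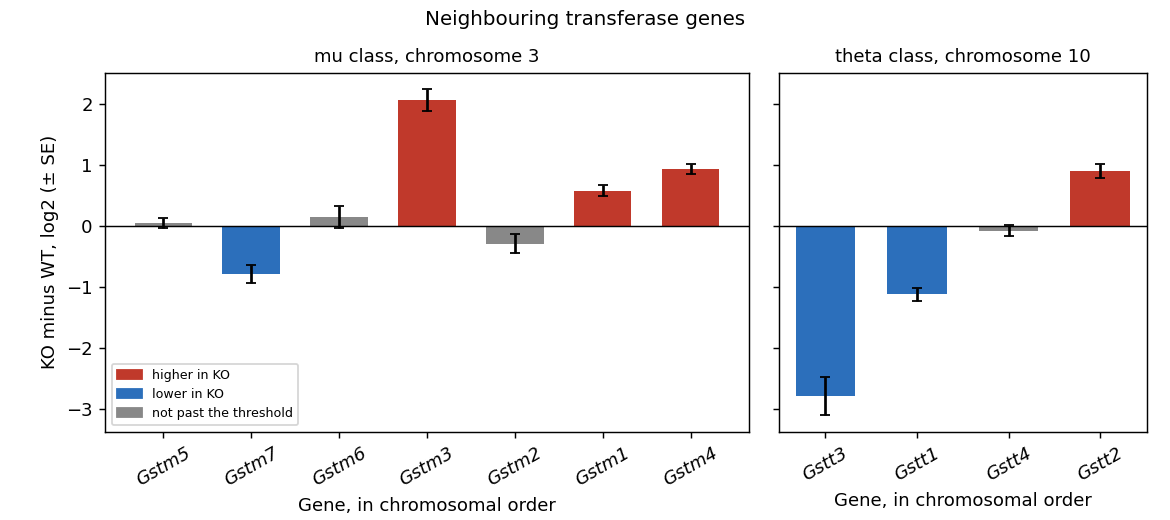
KO minus WT difference on the log2 scale (bars ± SE of the limma fit) for the mu class on chromosome 3 and the theta class on chromosome 10, drawn in chromosomal order and not to distance. Red bars passed as higher, blue as lower and grey did not pass, and both rows of neighbours hold bars on either side of 0, from -2.79 for Gstt3 to 2.07 for Gstm3.

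Theta class enzymes, which act on small halogenated compounds among others, held the largest fall of all members. Gstt3 stood at 9.80, 9.43 and 10.27 in WT and at 7.14, 7.60 and 6.39 in KO. All KO livers were far below WT, and they differed among themselves by more than the WT livers did. The gene was 6.93-fold lower (-2.79 ± 0.31, adjusted p = 0.000738).

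Gstt1, its neighbour, read 10.84, 10.67 and 10.98 in WT against 9.77, 9.65 and 9.70 in KO. The groups were clearly apart and the gene was 2.17-fold lower (-1.12 ± 0.11, adjusted p = 0.000321). Gstt2, at the other end of the row, rose 1.87-fold (0.91 ± 0.11, adjusted p = 0.00122), its WT values being 10.01, 10.31 and 10.36 and its KO values 11.09, 11.19 and 11.12. Gstt4, which lies between them, was under background in all 6 livers, at 4.48 to 4.65 (-0.080 ± 0.092, adjusted p = 0.548).

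In the alpha class, which conjugates products of lipid peroxidation, 2 of 3 genes were lower. Gsta4, whose enzyme prefers hydroxynonenal, a breakdown product of oxidised lipids, read 10.87, 10.69 and 10.98 in WT and 10.40, 10.24 and 9.99 in KO. No KO liver reached the lowest WT liver, and the gene was 1.56-fold lower (-0.64 ± 0.13, adjusted p = 0.0109). Gsta3 was 1.39-fold lower, from 13.27, 13.11 and 13.20 to 12.90, 12.63 and 12.62 (-0.47 ± 0.11, adjusted p = 0.0168), and its other probe set was lower as well, with a difference of -0.80 ± 0.12. Leaving out KO replicate 2 (adjusted p = 0.0716) or KO replicate 3 (0.0605) ended the Gsta3 call. Spike-in centring left -0.027 for Gsta3 and -0.19 for Gsta4, neither past the threshold.

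Gsta2 was the most variable member in WT, at 10.97, 10.28 and 12.10, while the KO livers lay together at 11.72, 11.75 and 11.82. The KO values fall inside the WT range, and the difference of 0.65 ± 0.38 did not pass (adjusted p = 0.248). Without WT replicate 3, the highest of the WT livers, it was 1.14 and passed as higher (adjusted p = 0.00701), and it also passed with array weights (0.99, adjusted p = 0.0365). A probe set shared by Gsta1, Gsta2 and Gm3776, outside the rule, was higher by 1.87 ± 0.39 (adjusted p = 0.0161, limma over all non-control probe sets) and is described at the end.

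The remaining soluble classes showed small differences. Gstz1, which doubles as the maleylacetoacetate isomerase of tyrosine breakdown, was 1.39-fold lower, from 11.99, 11.90 and 11.99 to 11.57, 11.48 and 11.39 (-0.48 ± 0.09, adjusted p = 0.00801). Its groups stood apart as deposited, and spike-in centring left -0.032. Gstk1, the kappa class enzyme of mitochondria and peroxisomes, read 11.37, 11.15 and 11.20 in WT and 11.02, 10.86 and 10.79 in KO. That is 1.27-fold lower (-0.35 ± 0.11, adjusted p = 0.0471), a call at the edge that was lost without any 1 of the 6 arrays (adjusted p from 0.0599 to 0.143).

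Gsto1, an omega class enzyme that also reduces dehydroascorbate, was higher in each KO liver than in each WT liver (10.65, 10.56 and 10.76 against 10.88, 11.07 and 10.87). Its difference of 0.29 ± 0.10 did not pass (adjusted p = 0.0783) but did with trend and robust options (0.0425) and with array weights (0.0451). Gsto2 was called lower (-0.33 ± 0.10, adjusted p = 0.0459), from 3.70, 3.48 and 3.51 to 3.26, 3.14 and 3.30, yet all 6 livers were under background, so no fold is given, and the call was lost without any 1 array (0.056 to 0.158). The pi class did not pass. Gstp1, a main transferase of the male mouse liver, read 14.04, 14.23 and 13.92 in WT and 13.87, 13.98 and 13.73 in KO, with overlapping groups (-0.21 ± 0.11, adjusted p = 0.224), and Gstp3 gave -0.31 ± 0.16 (adjusted p = 0.199).

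Among the membrane-bound forms Mgst3 was higher and Mgst1 showed nearly equal groups. Mgst3, which can make leukotriene C4, went from 8.75, 8.43 and 8.99 to 9.84, 9.98 and 9.64. All KO livers were above WT, a 2.14-fold rise (1.10 ± 0.16, adjusted p = 0.00227), while its other probe set was under background on all arrays (-0.16). Mgst1, of the endoplasmic reticulum and the outer mitochondrial membrane, lay between 13.85 and 13.94 in all 6 livers (-0.030 ± 0.083, adjusted p = 0.815). Mgst2 was under background throughout, at 3.59 to 4.26 (-0.12 ± 0.17, adjusted p = 0.648).

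**Figure D3:**
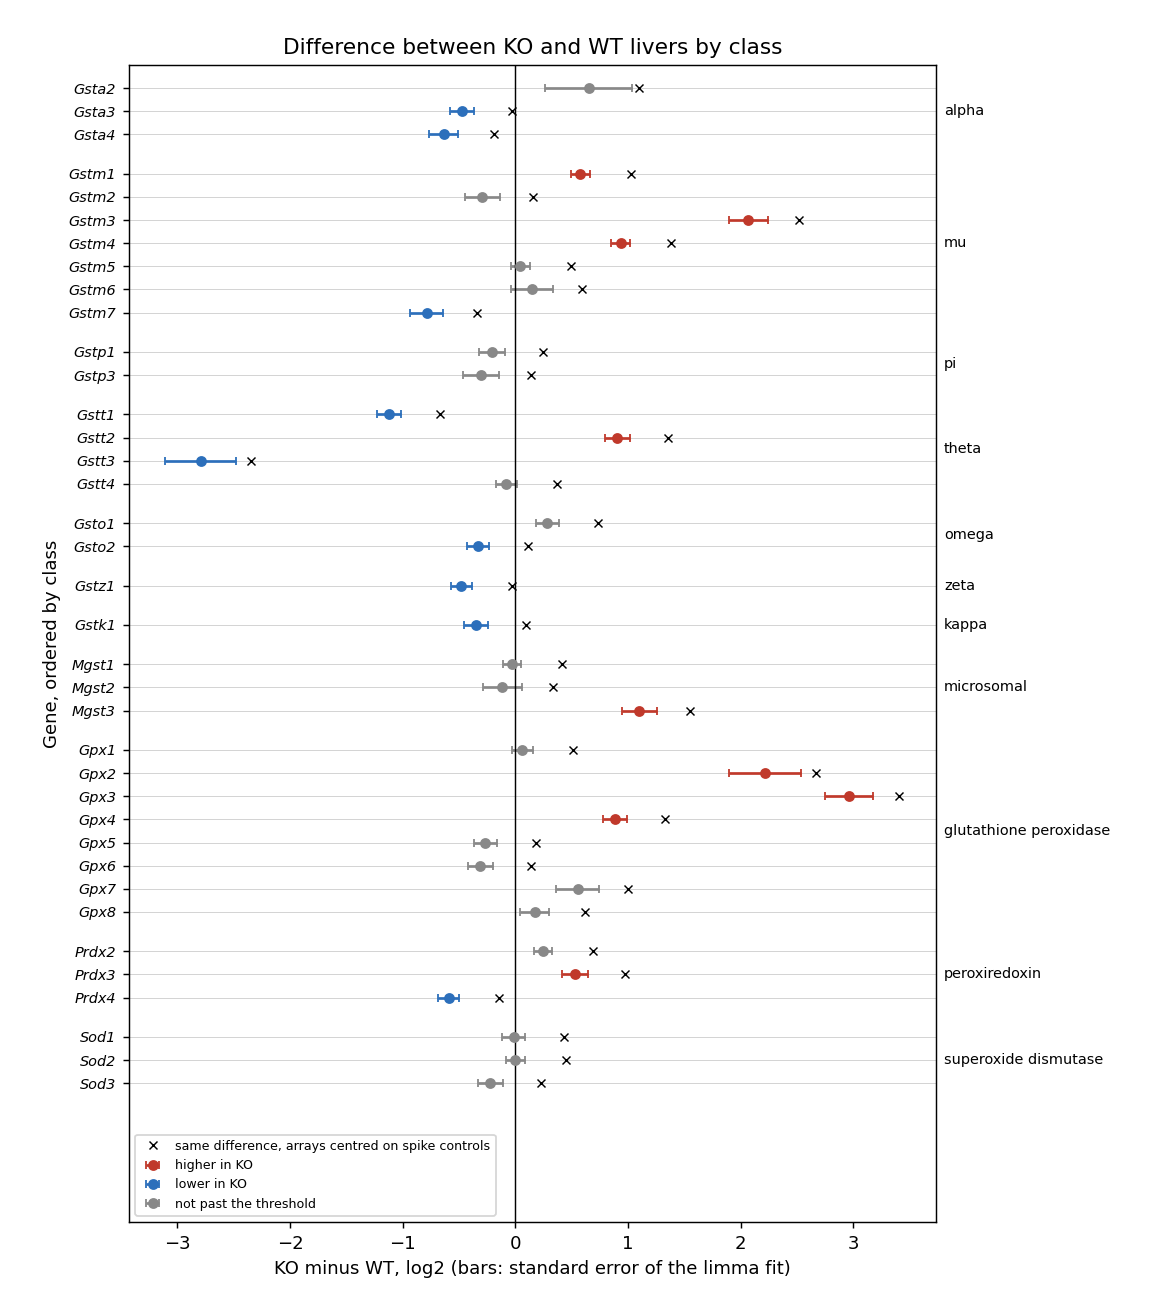
KO minus WT difference on the log2 scale with its SE (limma) for the 37 members by class, red where higher, blue where lower and grey where not past the threshold. Crosses give the same difference with the arrays centred on the spike-in controls, which moves every gene to the right by the same amount, and at which Gstt3, Gstt1 and Gstm7 are the members that still passed as lower.

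Of the 8 glutathione peroxidases 3 were higher and 0 lower. Gpx3, the form secreted into plasma and made mainly in kidney, stood at 7.37, 7.32 and 6.70 in WT and at 9.92, 10.44 and 9.91 in KO. The KO livers exceeded the WT livers by a wide gap, a 7.78-fold rise (2.96 ± 0.21, adjusted p = 7.88e-05). Of 4 kidney tubule markers measured beside it 0 were higher and 1 was lower, with 2 of the 4 under background on all arrays. Their joint level was 4.56 to 4.83 in WT and 4.42 to 4.65 in KO.

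Gpx2, the form typical of the gut lining, rose from 5.50, 5.39 and 5.31, just above background, to 7.53, 6.92 and 8.41. All KO livers were above WT, and their SD of 0.75 was the largest among KO livers of any member. The rise was 4.65-fold (2.22 ± 0.32, adjusted p = 0.00241). Gpx4, which reduces phospholipid peroxides inside membranes and holds off ferroptosis, went from 11.66, 11.51 and 11.73 to 12.42, 12.46 and 12.66. Here too the groups were apart, at 1.84-fold (0.88 ± 0.11, adjusted p = 0.00103), and its other probe set gave 0.83.

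Gpx1, the main peroxidase of the hepatocyte cytosol, did not pass, its 6 livers lying between 13.62 and 13.81 (0.062 ± 0.091, adjusted p = 0.643). Gpx7, a peroxidase of the endoplasmic reticulum, was above WT in each KO liver (5.50, 5.11 and 5.65 against 5.70, 5.88 and 6.34) without passing (0.55 ± 0.19, adjusted p = 0.0747). Gpx6 and Gpx8 were under background in all livers and Gpx5 in all KO livers, and their differences of -0.31, 0.17 and -0.27 did not pass.

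Of the 3 peroxiredoxins that the rule found, 1 was higher and 1 lower. Prdx1, Prdx5 and Prdx6 had no probe set under the rule, and of these only Prdx1 had shared ones, described at the end. Prdx3, of mitochondria, was 1.44-fold higher, from 10.79, 11.01 and 10.97 to 11.51, 11.58 and 11.28 (0.53 ± 0.11, adjusted p = 0.0137). KO livers were all above WT, but omitting KO replicate 1 (adjusted p = 0.0588) or KO replicate 2 (0.0603) ended the call. Prdx4, of the endoplasmic reticulum, was 1.51-fold lower, from 11.02, 10.86 and 10.90 to 10.40, 10.36 and 10.24 (-0.59 ± 0.09, adjusted p = 0.00359). Its groups were apart, yet 0 of its other 3 probe sets passed, at -0.60 (adjusted p = 0.0588), -0.48 and, under background, -0.0011. Spike-in centring left -0.14 for Prdx4, short of the threshold.

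Prdx2, of the cytosol, had the tightest groups of the 3, at 10.84, 10.82 and 10.89 in WT and 11.08, 11.11 and 11.10 in KO. All KO values were above WT, and the difference of 0.25 ± 0.08 did not pass (adjusted p = 0.0652) but passed under 5 of 15 alternatives, array weights and median centring among them.

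No superoxide dismutase passed. Sod1, the copper-zinc enzyme of the cytosol, read 12.85, 12.96 and 13.13 in WT and 12.97, 12.91 and 13.02 in KO (-0.016 ± 0.10, adjusted p = 0.922). Sod2, the manganese enzyme of mitochondria, read 11.45, 11.44 and 11.38 in WT and 11.45, 11.35 and 11.46 in KO (0.00063 ± 0.086, adjusted p = 0.997). Both pairs of groups overlapped, and the probe set that stands for Sod1 is marked as able to bind related transcripts. A second bright probe set of Sod1 read 12.96, 12.98 and 13.10 in WT and 12.78, 12.67 and 12.79 in KO, all KO livers below WT, without passing (-0.27 ± 0.09, adjusted p = 0.0747), and the 5 probe sets of Sod1 ranged from -0.27 to 0.14. Of the 4 probe sets of Sod2 1 passed as lower (-0.45 ± 0.09, adjusted p = 0.00949), the other 3 ranging from -0.26 to 0.00063. Sod3, the secreted form, differed by -0.22 ± 0.11 and did not pass (adjusted p = 0.183), its WT values being 8.10, 8.32 and 8.04 and all KO values lower, from 7.80 upwards.

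**Figure D4:**
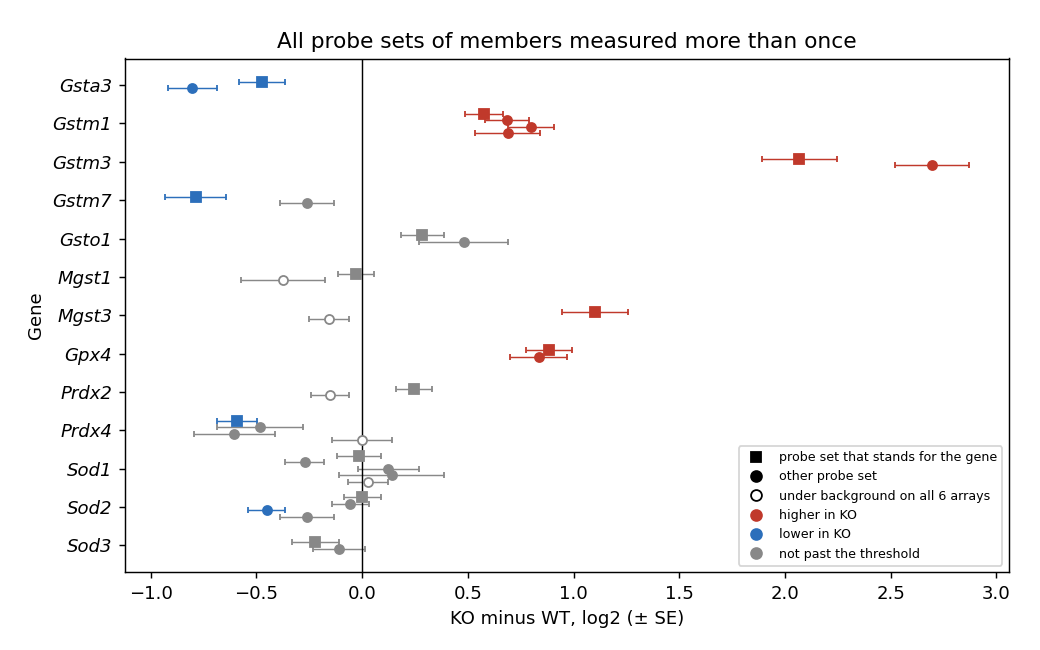
KO minus WT difference on the log2 scale (± SE) of every probe set of the 13 members measured more than once, with squares for the probe set that stands for the gene and open symbols for those under background on all 6 arrays. The 4 probe sets of Gstm1 and both of Gstm3, Gpx4 and Gsta3 passed in 1 direction each, whereas 1 of 4 passed for Sod2 and for Prdx4.

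Around these enzymes, glutathione and thioredoxin genes were measured in lists. For comparison with all list counts below, 14.2% of all genes were higher and 9.75% lower. With spike-in centring 11142 of all 18193 genes were higher and 462 lower, so most genes counted as higher on that scale. Of 16 genes of glutathione synthesis and recycling 6 were higher and 1 lower (median difference 0.21, 10 and 1 with spike-in centring). Gss, the synthase of the second step, rose 1.99-fold (0.99 ± 0.11) and Ggct, which releases the amino acid from glutamyl dipeptides as the glutamyl residue closes into a ring, 2.54-fold (1.34 ± 0.09). Slc7a11, the cystine importer, was under background in WT and rose at least 1.49-fold, while Glrx, glutaredoxin, was 3.21-fold lower (-1.68 ± 0.13). Of 12 genes of the thioredoxin system 5 were higher and 1 lower (median 0.21, 9 and 0 with spike-in centring). Srxn1, which restores over-oxidised peroxiredoxins, was higher by 2.69 ± 0.18, Txnip, an inhibitor of thioredoxin, by 0.88 ± 0.20, and Txnrd1, the cytosolic thioredoxin reductase, by 0.85 ± 0.12. The stress protein Sesn2 was higher by 0.64 ± 0.15.

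Gpx1 to Gpx4 contain selenocysteine, and of 20 genes of selenoprotein synthesis and other selenoproteins 1 was higher and 6 were lower (median 0.030, 13 and 1 with spike-in centring). Trnau1ap, which binds the selenocysteine tRNA, was higher by 0.71 ± 0.09, Selenok and Msrb1 were lower by 0.49 each (-0.49 ± 0.10 and -0.49 ± 0.09), and Dio1, the deiodinase of the liver, fell at least 4.76-fold to under background in KO. Among 9 other enzymes that make or break hydrogen peroxide 2 were higher and 2 lower (median -0.11, 5 and 2 with spike-in centring). Hao2, a hydroxyacid oxidase, rose 19.4-fold (4.28 ± 0.21), its relative Hao1 fell 4.27-fold (-2.09 ± 0.22), Pipox fell 2.19-fold (-1.13 ± 0.11) and Acox2 rose 1.33-fold (0.41 ± 0.11). Catalase, Cat, which breaks down hydrogen peroxide in peroxisomes, did not pass (-0.11 ± 0.10, adjusted p = 0.447).

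NRF2, encoded by Nfe2l2, is held in check by Keap1. Nfe2l2 was higher by 0.62 ± 0.11 (adjusted p = 0.00698) and Keap1 differed by 0.23 ± 0.11 (adjusted p = 0.174). Of 16 genes of the pathway that are no members 9 were higher and 0 lower (median 0.76, 15 and 0 with spike-in centring). Abcc4, an export pump, rose at least 70.3-fold, and Cbr3, a carbonyl reductase, was higher by 5.07 ± 0.21, Nqo1, a quinone reductase, by 2.79 ± 0.14 and malic enzyme, Me1, by 1.58 ± 0.26. Of 11 xenobiotic receptors and targets 2 were higher and 3 lower (median 0.0093, 8 and 1 with spike-in centring). The P450 genes Cyp2b9 and Cyp2b10 were higher by 4.94 ± 0.55 and 4.02 ± 0.37, whereas Nr1i3, the receptor CAR that controls Cyp2b10, was 3.13-fold lower (-1.65 ± 0.15) and Cyp1a2 1.78-fold lower.

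Genes that export glutathione conjugates or clear aldehydes were higher in 5 of 10 and lower in 3 (median 0.097, 5 and 1 with spike-in centring). The aldehyde dehydrogenases Aldh3a2 and Aldh1a7 were higher by 1.36 ± 0.10 and 0.99 ± 0.15 and the canalicular pump Abcc2 by 0.90 ± 0.12, while glyoxalase, Glo1, was 1.94-fold lower (-0.95 ± 0.09). Of 7 partners and metal carriers of superoxide dismutases 2 were higher and 2 lower (median -0.27, 3 and 1 with spike-in centring). Ccs, the copper chaperone of Sod1, was lower by 0.42 (-0.42 ± 0.11) and Slc30a10, a manganese exporter, 3.21-fold lower (-1.68 ± 0.40), with Atox1 and Slc25a39 higher by 0.42 ± 0.09 and 0.45 ± 0.08.

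**Figure D5:**
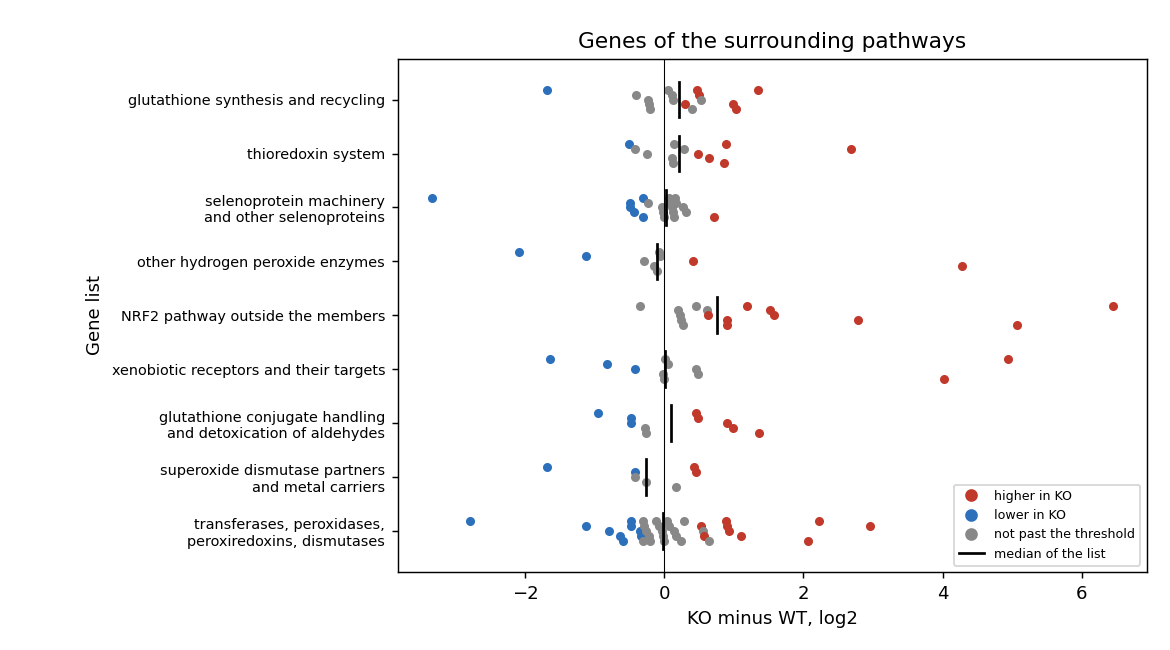
KO minus WT difference on the log2 scale of each measured gene in the 8 surrounding lists and of the 37 members (bottom row), red where higher, blue where lower and grey where not past the threshold, with a black bar at each median. The NRF2 list has the median farthest from 0 (0.76) and no blue point, whereas the members, with a median of -0.016, spread to both sides.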

How the data were processed

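Per the labels' protocols, Trizol was used to extract the RNA, which carried a biotin label on Affymetrix arrays. The authors deposited RMA values on the log2 scale, 1 for each probe set and array, per the submitters' processing notes, and the RMA version is not given in the sources used here. RMA draws the arrays towards 1 distribution, so levels are relative, and dim probe sets have compressed differences. Arrays were assigned to groups by their titles, and the number of arrays limits the precision.

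Of 45101 probe sets 64 are controls, and the platform annotation of 2016 gives 34945 of the rest 1 symbol, 932 several, and does not list 9160. Updating names through RefSeq's GRCm38.p6 table altered 0 symbols, and 204 that had no match there were kept. The test was limma 3.58.1 (R 4.3.3; lmFit and eBayes, two-sided), checked on simulated data. There 20.5% of changes of size 0.5, 71.4% of size 1 and 98.6% of size 2 were recovered. A gene that did not pass is therefore not shown to be unchanged. Where all arrays of a group lay under background, a fold is a lower bound, with those arrays set to the background. Multiple-symbol probe sets were fitted with all non-control ones. Members with a call, or with a call that an alternative changes, are given by array in most cases, and up to 4 called genes of each surrounding list by size. The members and lists were chosen with earlier results of these data known. Alternatives were a replicate block, a filter leaving 12042 genes, other normalizations (spike-in centring used 38 control probe sets), other probe set choices, eBayes options, array weights, stricter call rules and 6 fits that each omit 1 array. WT and KO arrays of the same number were not treated as pairs, since their deviations from the group means correlated at 0.105, -0.018 and 0.105.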

Additional observations from a re-analysis of the deposited data

How the results depend on the processing

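The choice of scale mattered most. With the arrays centred on the spike-in controls 21 members were higher and 3 lower (transferases 11 and 3, the other families 10 and 0), against 11142 higher and 462 lower of all genes and 67 and 7 of the listed genes, where the deposited scale gave 31 and 18. On that scale 12 members went from negative to positive, of which 5 had a call on either scale, namely Gstk1 (0.098), Gsto2 (0.11), Gstt4 (0.37), Mgst1 (0.42) and Sod1 (0.43), and the other 7 had none. At an adjusted p of 0.01, 5 members were lower (4 transferases), with 9 listed genes lower and 1285 genes higher and 732 lower in all. A minimum difference of 1 left 4 higher and 2 lower members (transferases 2 and 2, the others 2 and 0), 13 and 6 listed genes, and 550 and 327 of all genes. The probe sets of Mgst3, Prdx2, Sod1 and Sod2 differed in sign. Another probe set gave -0.45 for Sod2, also where the probe set of largest SD stood for the gene, and those of Mgst3 (-0.16) and Prdx2 (-0.15) were under background on all arrays. Leaving out 1 array gave 8 to 10 higher and 6 to 7 lower members, transferases 5 to 6 and 5 to 6, the others 3 to 4 higher and 1 lower, listed genes 23 to 32 and 9 to 16, and all genes 1497 to 2424 higher and 888 to 1679 lower. Transferases numbered 5 lower without KO replicate 2 or 3, and listed genes 9 lower without KO replicate 2. All genes numbered 1604 and 984 without KO replicate 1, 1497 and 888 without KO replicate 2 and 1156 lower without KO replicate 3. A replicate block gave 10 higher and 8 lower members, Gpx7 being gained (adjusted p = 0.0364) and Gsto2 lost (0.0585), and 3 of 6 arrays correlated best with their own number. Of 18 called members 11 kept call and direction in the 15 alternative fits, and of 19 without a call 7 gained none. The cause of these changes was not tested beyond what each setting does by construction.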

Other observations

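Probe sets that the annotation gives several symbols fall outside the rule and are described here. The 5 probe sets shared by Prdx1, a cytosolic peroxiredoxin, and Gm21399 differed by 0.061 to 0.25 and none passed (adjusted p from 0.114 to 0.695), with KO above WT in all livers for 4 of the 5. A probe set shared by Gsta1, Gsta2 and Gm3776 read 10.40, 9.64 and 11.50 in WT and 12.48, 12.40 and 12.27 in KO. All KO livers were above WT, a 3.65-fold rise (1.87 ± 0.39, adjusted p = 0.0161, limma over all non-control probe sets), whereas the probe set of Gsta2 alone did not pass. WT replicate 2 was the lowest and WT replicate 3 the highest on both probe sets.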
